A study of Homo sapiens with 6 samples.

Results

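The genes described here are the protein-coding genes of one stretch of human chromosome 5, GRCh38 positions 14664664 to 54310582, which takes in the centromere-side part of the short arm (5p) and the first part of the long arm (5q). The rule keeps genes of GENCODE release 29 that lie wholly inside the stretch and reached an FPKM of at least 1 in 2 or more of the 6 libraries. FPKM scales fragments by exon length and by a figure for library depth, so it can be compared between genes of different length. Of 111 protein-coding genes in the stretch, 60 passed that filter, and the rule leaves out 9 of these by name or family (BASP1, CPLANE1, LIFR, OSMR, HMGCS1, ITGA1, ITGA2, NDUFS4 and RPL37). That left 51 genes, out of 58735 gene IDs in the files, 45 of them on 5p and 6 on 5q. The other 51 genes stayed below the filter: 26 had 0 reads in all 6 libraries and 25 had some reads. Of those, CAPSL came nearest to passing, with 1.01 FPKM in 1 WT library. The stretch was chosen by the knockout minus WT differences seen earlier in the same libraries, so every difference between a knockout group and WT is given below as a description, without a test. The comparison of the knockout groups with each other did not enter that choice and was tested.

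NCI-N87 is an established gastric carcinoma line of human origin in which ERBB2, encoding HER2, is amplified. Its total RNA was sequenced in 6 libraries: 2 from a KRT17 knockout group named KO2, 2 from a KRT17 knockout group named KO1, and 2 from wild-type cells (WT). KRT17 encodes keratin 17, an intermediate filament protein of stressed and stratified epithelia. The labels do not say whether KO1 and KO2 stand for guides, clones or pools, how the gene was edited, or whether replicates came from separate cultures, so the spread behind each p-value is that of these libraries and may be technical. All 6 libraries are labelled NCI-N87, and no other allele or agent is named.

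The short arm of chromosome 5 is a well-known site of DNA gain in carcinomas, and the stretch holds genes that have been studied there, among them SKP2, RICTOR, DROSHA, NIPBL and GOLPH3. The products work in unrelated places: SKP2 marks cell cycle inhibitors for destruction, RICTOR is the defining subunit of the kinase complex mTORC2, DROSHA starts microRNA processing, NIPBL loads cohesin onto DNA, and GOLPH3 is a Golgi membrane protein. What these genes share is their address. The files hold RNA levels, and DNA copy number of the stretch was not tested.

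Read totals were 18627054 and 17599759 in KO2, 22673871 and 21880796 in KO1 and 22852340 and 19618509 in WT. KRT17 was at 11.3 and 10.4 FPKM in KO2, 2.29 and 2.40 FPKM in KO1 and 739 and 753 FPKM in WT. The knockout libraries also departed from the labelled cell type. ERBB2 was at 5.27 to 6.07 FPKM in the 4 knockout libraries and 1355 and 1420 FPKM in WT. All 8 markers listed for simple gastrointestinal epithelium, ERBB2 among them, were lower. Their summed level was 321 to 391 FPKM in the knockout libraries and 5018 and 5186 FPKM in WT. Most of the knockout sum was KRT8 (166 to 197 FPKM) and KRT18 (146 to 184 FPKM), while KRT19, CDX2, CDH1 and VIL1 were under 1 FPKM there. Of 7 fibroblast markers 4 passed the filter and all 4 were higher, with a list sum of 44.5 to 57.8 FPKM in the knockout libraries against 0.760 and 0.907 FPKM in WT, while COL1A2 and THY1 stayed near 0. The leukocyte list summed to 1.15 to 2.19 FPKM in the knockout libraries and 1.35 and 1.41 FPKM in WT, with PTPRC and CD3E near 0. The endothelial list summed to 0.668 to 0.746 FPKM in the knockout libraries and 0.106 and 0.127 FPKM in WT, and none of its genes passed the filter. That rise was CDH5, at 0.629 to 0.680 FPKM in the knockout libraries and 0.0152 and 0.00895 FPKM in WT. PECAM1 and KDR were near 0 in all libraries and VWF overlapped WT. The part of these marker differences in the values below was not tested. In these bulk libraries fewer cells of a type and less RNA per cell cannot be told apart. Whether the knockout libraries come from the same line as WT rests on the labels and was not tested.

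Genes of the 5p part were higher in both knockout groups, while those of the 5q part were not. All 4 knockout libraries lay above both WT libraries for 41 of the 51 genes, all 41 on 5p, and below both for 7, of which 2 were on 5p and 5 on 5q. Over all 16046 tested genes the shares were 39.9% above and 40.0% below, and over the 11882 tested protein-coding genes 39.7% and 45.4%. Because the stretch was chosen for its higher levels, nothing is read from the first count. Groups overlapped for MYO10 and PDZD2 on 5p and for PARP8 on 5q. The working name of the stretch says that proximal 5q genes were raised too, and the 6 genes counted there go against it: 0 of them had all knockout libraries above WT, although PARP8 was above WT in KO1. Of the 5q genes that the rule leaves out, ITGA1, an integrin subunit gene, was at 7.60 and 7.73 FPKM in KO2, 9.15 and 9.11 FPKM in KO1 and 3.39 and 3.16 FPKM in WT, with all knockout libraries above WT. ITGA2, another integrin subunit gene, was at 4.84 and 5.31 FPKM in KO2, 10.5 and 10.5 FPKM in KO1 and 15.5 and 15.5 FPKM in WT. NDUFS4, a respiratory complex I subunit gene, overlapped WT.

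**Figure D1:**
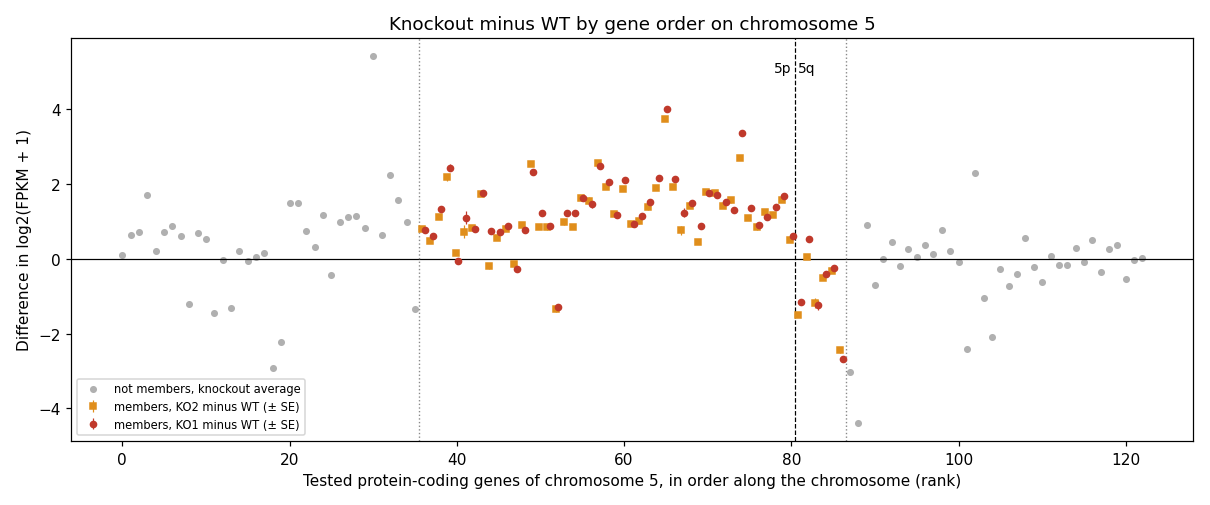
Difference from WT in log2(FPKM + 1) for tested protein-coding genes of chromosome 5 in their order along the chromosome. Squares and circles are the 51 genes of the stretch in KO2 and KO1 with the SE of the fit, grey points are the 36 tested genes before the stretch and the nearest 36 after it (knockout average), dotted lines mark the ends of the stretch and the dashed line the centromere. The 9 genes left out by name are not drawn. Most 5p points lie between 0.5 and 2.5 in both groups, and 5 of the 6 genes past the centromere lie below 0, PARP8 being the exception.

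The median level of the 5p genes was more than double that in WT. The median over the 45 genes was 16.0 FPKM in KO2, 16.8 FPKM in KO1 and 7.09 FPKM in WT, and the median ratio of the knockout mean to the WT mean was 2.58. Measured as log2(FPKM + 1), a scale that shrinks the change of genes with low values, their median difference from WT was 1.11 in KO2 and 1.23 in KO1. For the knockout average (the mean of the 2 groups' differences) it was 1.19, with quartiles of 0.83 and 1.73. Of the 45 ratios, 32 lay between 1.5 and 5, 3 lay under 1.5 and 10 lay over 5 or had 0 reads in WT. Over the 35 genes of 5p with at least 1 FPKM in all 6 libraries the median difference was 1.17. Spearman's rank correlation between WT level and ratio was -0.46 over those genes, a description across genes that are not independent. The WT level is the divisor of the ratio, which by itself favours a negative value, so nothing is read from it. The 6 genes of 5q had medians of 4.75 FPKM in KO2, 5.83 FPKM in KO1 and 10.8 FPKM in WT, a median ratio of 0.543 and a median difference of -0.83. Over all 11882 tested protein-coding genes the median difference was -0.05.

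The difference was not even along 5p. Taken 10 genes at a time from the telomere side, the genes from OTULIN to GOLPH3 had a median difference of 0.80 log2, and those from MTMR12 to DNAJC21 0.94. The next 10, SPEF2 to DAB2, stood at 1.74, and TTC33 to ZNF131 at 1.46. All 20 genes of those middle blocks had every knockout library above both WT libraries. In TMEM267 to MOCS2, the block that crosses the centromere, the median was 0.43, with 5 genes above, 4 below and 1 overlapping. Within that block the 5 genes of 5p lay above WT, up to MRPS30, and those of 5q, from EMB on, did not, apart from PARP8 in KO1.

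**Figure D2:**
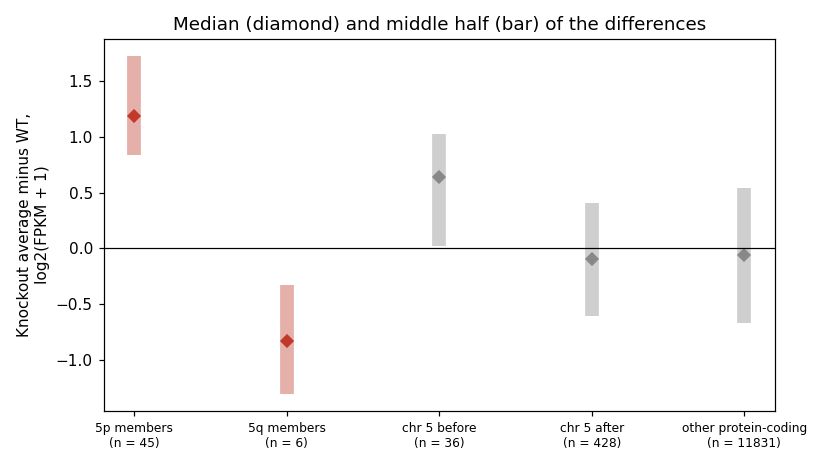
Median (diamond) and range between quartiles (bar) of the knockout average minus WT in log2(FPKM + 1), by part of chromosome 5, with the number of tested protein-coding genes under each. The 45 genes of 5p have a median of 1.19 and the 6 of 5q -0.83; the genes before the stretch have 0.64, those after it -0.10 and other protein-coding genes -0.06.

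The raised levels did not begin at the edge of the stretch. The 36 tested protein-coding genes between the 5p end and position 14664664 had a median difference of 0.64 log2, with 24 above WT in all knockout libraries, 7 below and 5 overlapping, and the nearest 20 of them had a median of 0.91. Just outside, DAP, a mediator of interferon-induced cell death, was at 72.7 ± 3.44 FPKM in the knockout libraries (SD, n = 4) and 23.8 ± 0.657 FPKM in WT (SD, n = 2). TRIO was at 16.0 ± 1.12 FPKM in the knockout libraries and 7.54 ± 0.154 FPKM in WT, while OTULINL, a relative of OTULIN next to it, was at 0.414 ± 0.185 FPKM in the knockout libraries and 2.59 ± 0.234 FPKM in WT. On the 5q side no such shift was seen: the 428 tested protein-coding genes after the stretch had a median of -0.10, with 156 above, 206 below and 66 overlapping, and the nearest 20 had a median of -0.05. Of the 3 genes next to that end, SNX18, an endosomal sorting nexin, was at 1.78 ± 0.116 FPKM in the knockout libraries and 56.9 ± 1.53 FPKM in WT. HSPB3, a small heat shock protein gene, was at 0.0850 ± 0.130 FPKM in the knockout libraries and 7.79 ± 0.601 FPKM in WT. GPX8, an endoplasmic reticulum peroxidase gene, was at 14.0 ± 0.496 FPKM in the knockout libraries and 7.12 ± 0.0936 FPKM in WT. GPX8 was thus higher past that end, while the medians on the 2 sides of the stretch differed in sign.

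**Figure D3:**
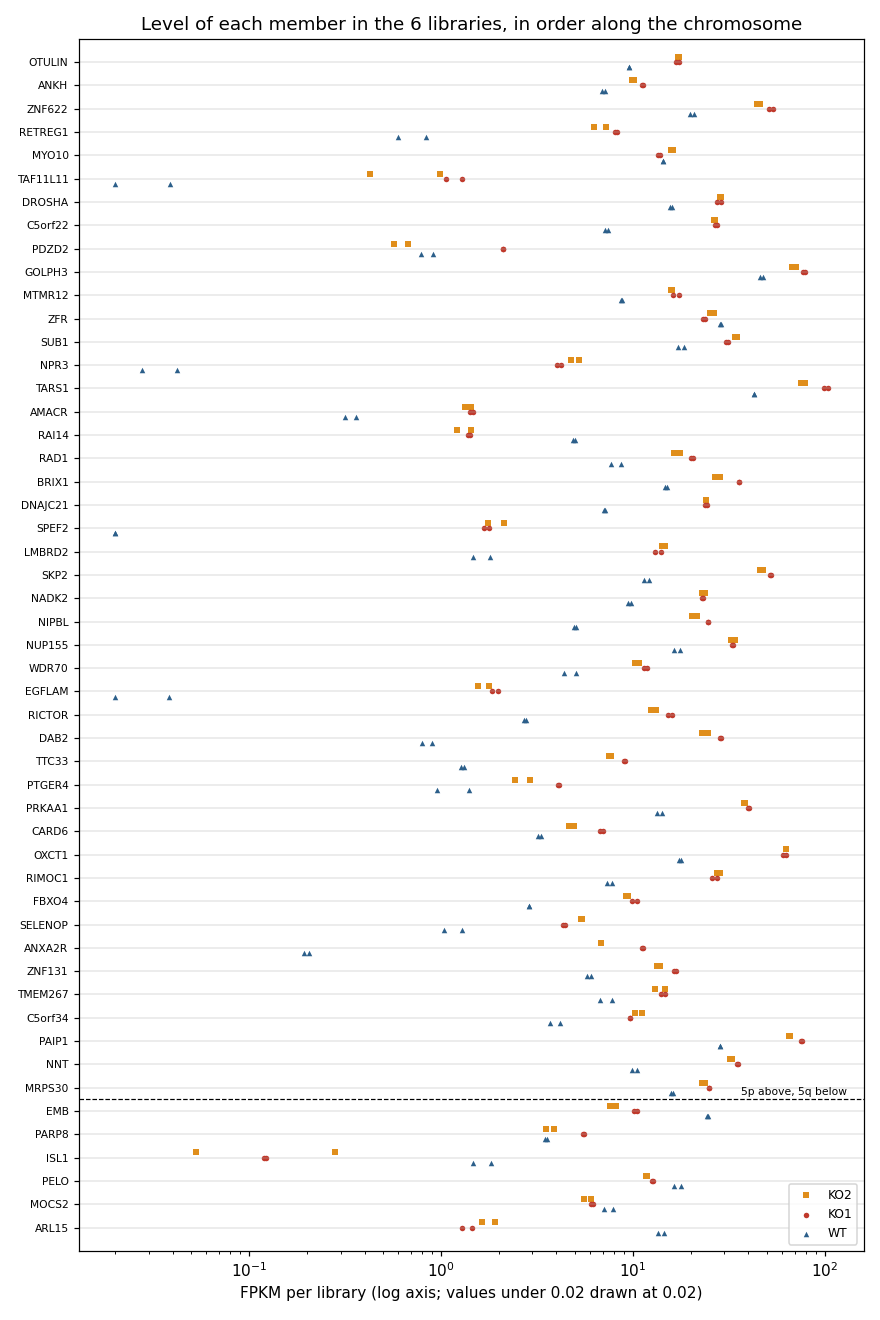
FPKM of each of the 51 genes in each of the 6 libraries on a log axis, in order along the chromosome from top to bottom; squares are KO2, circles KO1 and triangles WT, and values under 0.02 are drawn at 0.02. In most 5p rows the triangles lie to the left of the 4 knockout points, and below the dashed line, on 5q, they lie to the right in 5 of 6 rows.

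Some counts above rest on the filter. Of the 51 genes, 40 had at least 1 FPKM in all 6 libraries and PTGER4 in 5. Another 9 passed through knockout libraries alone (RETREG1, TAF11L11, NPR3, AMACR, SPEF2, EGFLAM, DAB2, ANXA2R and PDZD2), and ISL1 passed through WT alone, so the filter itself favoured a difference in those 10. PDZD2 and TAF11L11 passed through the KO1 libraries alone, which favoured a difference between KO2 and KO1 as well. Exon bases are shared with another gene for 17 of the 51, and for 2 of them over more than 20% of the exons: AMACR (64.8%, with the readthrough gene C1QTNF3-AMACR) and SELENOP (36.1%, with CCDC152). The treatment of such reads in the authors' counting is unknown here, and both levels are uncertain. TAF11L11, at 0.425 and 0.987 FPKM in KO2, 1.28 and 1.06 FPKM in KO1 and 1 read in all in WT, is one of several near-identical copies, so its level is uncertain and it is not described further.

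Of 11 genes of RNA processing, ribosomes and translation, 9 were above WT in all knockout libraries and 2 (ZFR and PELO) below. TARS1, which charges threonine to its tRNA (chromosome 5, 33440696 to 33469539), was at 75.7 and 79.2 FPKM in KO2, 104 and 99.3 FPKM in KO1 and 42.9 and 42.9 FPKM in WT. Every knockout library was above both WT libraries, and KO2 sat below KO1. PAIP1, a partner of poly(A)-binding protein in translation initiation (43526267 to 43557758), was at 65.6 and 64.8 FPKM in KO2, 75.7 and 75.2 FPKM in KO1 and 28.6 and 28.6 FPKM in WT, a ratio of 2.46 between the knockout and WT means. ZNF622, whose yeast relative acts in maturation of the large ribosomal subunit, was at 45.9 and 44.5 FPKM in KO2, 51.2 and 53.5 FPKM in KO1 and 19.98 and 20.9 FPKM in WT. The same order of groups, WT lowest and KO1 highest, held for all 3 without overlap. BRIX1, a ribosome assembly factor, was at 26.7 and 28.6 FPKM in KO2, 35.9 and 35.7 FPKM in KO1 and 15.0 and 14.8 FPKM in WT; it shares 9.62% of its exon bases with its neighbour RAD1. DROSHA, the nuclease that cuts primary microRNAs, was at 28.5 and 28.97 FPKM in KO2, 28.8 and 27.3 FPKM in KO1 and 16.0 and 15.6 FPKM in WT, with the knockout groups overlapping each other and both above WT. Ratios of the other raised genes ran from 1.51 for MRPS30, a mitochondrial ribosome protein gene, to 3.39 for DNAJC21, a chaperone of ribosome assembly, with NUP155 (nuclear pore) at 1.96 and SUB1 (transcription coactivator) at 1.83. ZFR, an RNA-binding zinc finger gene, was at 25.3 and 26.4 FPKM in KO2, 23.1 and 23.9 FPKM in KO1 and 28.7 and 28.6 FPKM in WT. It was the one gene of this list on 5p that lay below WT in all knockout libraries, and its KO2 minus WT difference turned positive, to 0.037 log2 under quantile normalization and 0.014 with library size as the only scaling.

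Of 8 chromatin, genome and cell cycle genes, 7 were above WT in all knockout libraries and ISL1 was below. SKP2, the F-box subunit that targets the cell cycle inhibitor CDKN1B (36151989 to 36184319), was at 47.6 and 46.3 FPKM in KO2, 52.0 and 52.3 FPKM in KO1 and 12.2 and 11.4 FPKM in WT, a ratio of 4.21. NIPBL, the cohesin loader (36876759 to 37066413), was at 20.4 and 21.6 FPKM in KO2, 24.8 and 24.5 FPKM in KO1 and 4.96 and 5.09 FPKM in WT, a ratio of 4.54. For both genes the lowest knockout library was over 3 times the highest WT library. RAD1, a subunit of the 9-1-1 DNA damage clamp, was at 17.6 and 16.5 FPKM in KO2, 20.5 and 20.1 FPKM in KO1 and 8.71 and 7.68 FPKM in WT, a ratio of 2.28. FBXO4, another F-box gene, had a ratio of 3.39, and ZNF131, a zinc finger transcription factor gene, 2.56; C5orf34 and WDR70 stood at 2.58 and 2.35.

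Among 7 kinase, ubiquitin and adaptor genes 5 were above WT in all knockout libraries, ARL15 was below and PARP8 overlapped. PRKAA1, a catalytic subunit of the energy-sensing kinase AMPK, was at 37.9 and 38.5 FPKM in KO2, 40.4 and 40.0 FPKM in KO1 and 14.3 and 13.3 FPKM in WT, a ratio of 2.84. RICTOR was at 12.5 and 13.2 FPKM in KO2, 16.0 and 15.3 FPKM in KO1 and 2.72 and 2.78 FPKM in WT, a ratio of 5.19, with every knockout library over 4 times the higher WT library. DAB2, an endocytic adaptor that also acts in TGF-beta and Wnt signalling (39371675 to 39462300), had the largest difference of the stretch on the log2(FPKM + 1) scale, 3.87 for the knockout average. Its level was 22.9 and 24.5 FPKM in KO2, 28.6 and 28.7 FPKM in KO1 and 0.798 and 0.896 FPKM in WT, a ratio of 30.9, and it passed the filter through the knockout libraries alone. OTULIN, which removes linear ubiquitin chains and is the first gene of the stretch, was at 17.4 and 17.2 FPKM in KO2, 17.4 and 16.9 FPKM in KO1 and 9.53 and 9.59 FPKM in WT. Its KO2 and KO1 libraries overlapped and both lay above WT. CARD6, a gene with a caspase recruitment domain, was at 4.65 and 4.96 FPKM in KO2, 6.96 and 6.74 FPKM in KO1 and 3.20 and 3.34 FPKM in WT.

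Receptor, channel and surface genes were 4 above WT in all knockout libraries and 1 below (EMB, on 5q). PTGER4 encodes EP4, a receptor for prostaglandin E2. It was at 2.91 and 2.43 FPKM in KO2, 4.06 and 4.14 FPKM in KO1 and 0.959 and 1.40 FPKM in WT. ANXA2R, described as a receptor for annexin A2, was at 6.82 and 6.82 FPKM in KO2, 11.3 and 11.2 FPKM in KO1 and 0.194 and 0.205 FPKM in WT, a ratio of 45.2. NPR3, the clearance receptor of natriuretic peptides, was at 4.76 and 5.27 FPKM in KO2, 4.05 and 4.22 FPKM in KO1 and 0.0422 and 0.0276 FPKM in WT. With 14 reads in the 2 WT libraries together, its ratio of 131 is poorly bounded, but the knockout libraries were far above WT. ANKH, a membrane protein needed for release of pyrophosphate, was at 9.95 and 10.1 FPKM in KO2, 11.3 and 11.2 FPKM in KO1 and 6.88 and 7.14 FPKM in WT, a ratio of 1.52, one of the smallest on 5p.

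Both secreted protein genes that passed the filter were above WT in all knockout libraries. SELENOP, which carries selenium in plasma, was at 5.44 and 5.40 FPKM in KO2, 4.41 and 4.32 FPKM in KO1 and 1.29 and 1.04 FPKM in WT, subject to the shared exons given above. EGFLAM, the gene of the matrix protein pikachurin, was at 1.77 and 1.55 FPKM in KO2, 1.83 and 1.98 FPKM in KO1 and 0.00809 and 0.0380 FPKM in WT, with 5 reads in WT in all. EGFLAM passed the filter through the knockout libraries alone, so the filter itself favoured its place above WT.

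Of 5 metabolic genes, 4 were above WT in all knockout libraries and MOCS2, on 5q, below. OXCT1, the enzyme that lets mitochondria use ketone bodies (41730065 to 41870519), was at 62.6 and 63.0 FPKM in KO2, 62.6 and 60.4 FPKM in KO1 and 17.9 and 17.4 FPKM in WT, a ratio of 3.52. NNT, the mitochondrial transhydrogenase that makes NADPH (43602692 to 43707405), was at 32.0 and 33.0 FPKM in KO2, 35.3 and 34.9 FPKM in KO1 and 9.91 and 10.6 FPKM in WT, a ratio of 3.30. NADK2, the mitochondrial NAD kinase, was at 23.8 and 23.0 FPKM in KO2, 23.1 and 22.9 FPKM in KO1 and 9.42 and 9.80 FPKM in WT. In each of the 3 the knockout libraries lay at more than double the level of WT. AMACR, a racemase of branched fatty acid breakdown whose reads may belong to the readthrough gene, was at 1.43 and 1.34 FPKM in KO2, 1.46 and 1.42 FPKM in KO1 and 0.316 and 0.360 FPKM in WT.

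Trafficking, cytoskeleton and cilia genes, 12 in all, were 9 above WT in all knockout libraries, 1 below (RAI14) and 2 overlapping (MYO10 and PDZD2). GOLPH3, which binds a Golgi phosphoinositide and shapes outward traffic, was at 67.6 and 70.8 FPKM in KO2, 78.8 and 77.2 FPKM in KO1 and 46.0 and 47.8 FPKM in WT, a ratio of 1.57. RIMOC1, a RAB7A-interacting protein gene, was at 27.6 and 28.4 FPKM in KO2, 27.5 and 25.9 FPKM in KO1 and 7.76 and 7.35 FPKM in WT. Smaller or larger ratios were found for MTMR12, a phosphoinositide phosphatase relative without activity (1.87), TMEM267 (1.94) and TTC33 (6.41). RETREG1, a receptor for autophagy of the endoplasmic reticulum, was at 7.21 and 6.25 FPKM in KO2, 8.11 and 8.30 FPKM in KO1 and 0.831 and 0.596 FPKM in WT, a ratio of 10.5. SPEF2, a gene of sperm flagella and cilia, was at 2.12 and 1.75 FPKM in KO2 and 1.78 and 1.68 FPKM in KO1 and had 0 reads in WT, so it was at least 196-fold higher against a floor of 3 reads in each WT library (counting error only). RAI14, an actin-binding protein gene, ran the other way at 1.21 and 1.44 FPKM in KO2, 1.38 and 1.43 FPKM in KO1 and 4.86 and 4.98 FPKM in WT. Neither direction was kept across groups by MYO10, a motor of filopodia, at 15.9 and 16.2 FPKM in KO2, 13.5 and 13.9 FPKM in KO1 and 14.3 and 14.4 FPKM in WT, or by PDZD2, a PDZ domain gene, at 0.675 and 0.572 FPKM in KO2, 2.09 and 2.11 FPKM in KO1 and 0.909 and 0.790 FPKM in WT. For MYO10 the KO2 libraries lay above WT and the KO1 libraries below, and for PDZD2 it was the reverse. The KO1 minus WT difference of MYO10 changed sign with scaling, to 0.014 log2 under quantile normalization and 0.064 with library size as the only scaling.

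On 5q, 5 of the 6 genes lay below WT in all knockout libraries. EMB, a surface glycoprotein that escorts lactate transporters (50396192 to 50443248), was at 7.65 and 8.20 FPKM in KO2, 10.5 and 10.2 FPKM in KO1 and 24.6 and 24.3 FPKM in WT. PARP8, an ADP-ribosyltransferase gene, was at 3.53 and 3.87 FPKM in KO2, 5.56 and 5.53 FPKM in KO1 and 3.58 and 3.48 FPKM in WT; KO1 was above WT and KO2 overlapped it. ISL1, a LIM homeobox gene of pancreas, heart and neurons, was at 0.0531 and 0.280 FPKM in KO2, 0.119 and 0.122 FPKM in KO1 and 1.46 and 1.83 FPKM in WT. PELO, which rescues stalled ribosomes and lies within ITGA1, was at 11.7 and 11.8 FPKM in KO2, 12.6 and 12.8 FPKM in KO1 and 16.5 and 17.8 FPKM in WT. It shares 10.9% of its exon bases with ITGA1. MOCS2, of molybdenum cofactor synthesis, was at 6.04 and 5.58 FPKM in KO2, 6.03 and 6.21 FPKM in KO1 and 7.90 and 7.10 FPKM in WT. ARL15, a small GTPase gene at the far end of the stretch (53883945 to 54310582), was at 1.91 and 1.63 FPKM in KO2, 1.29 and 1.45 FPKM in KO1 and 14.6 and 13.6 FPKM in WT, the lowest ratio that rests on more than 1 FPKM in every library, 0.111.

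Some pairs of raised genes start back to back. LMBRD2 on the minus strand and SKP2 on the plus strand start 28 bases apart (GENCODE starts 36151961 and 36151989), and DROSHA and C5orf22 start 70 bases apart (31532196 and 31532266). LMBRD2 was at 14.1 and 14.7 FPKM in KO2, 14.1 and 13.1 FPKM in KO1 and 1.80 and 1.47 FPKM in WT, a ratio of 8.57, next to the 4.21 of SKP2. C5orf22 was at 26.7 and 26.5 FPKM in KO2, 27.6 and 26.8 FPKM in KO1 and 7.13 and 7.46 FPKM in WT, a ratio of 3.69, next to the 1.80 of DROSHA. Both members of each of these pairs were above WT in all knockout libraries, and the ratios within each were unequal. RAD1 on the minus strand and BRIX1 on the plus strand also have nearly the same RefSeq promoter window (34915455 to 34915754 and 34915461 to 34915760). Their GENCODE bodies overlap, so they were not counted as a pair here. Their ratios, 2.28 and 2.13, were close.

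RefSeq promoter windows (build GRCh38.p14, 250 bases before to 50 after the annotated start) were found for 48 of the 51 genes. Shown as examples are 4: SKP2 and C5orf22 for the starts shared with LMBRD2 and DROSHA, DAB2 for its large ratio, and ARL15 for the lowest ratio among genes with more than 1 FPKM in every library. They were chosen after the values were seen. Windows are SKP2 at chr5:36151861-36152160 (plus strand), C5orf22 at chr5:31532051-31532350 (plus strand), DAB2 at chr5:39424931-39425230 (minus strand) and ARL15 at chr5:54310524-54310823 (minus strand). For DAB2 the RefSeq start is not the outermost GENCODE start. The LMBRD2 window shares 277 of its 300 bases with that of SKP2, and the DROSHA window 293 with that of C5orf22. Capitals mark matches, on either strand, to 6 motifs: TATAAA, called the TATA box below, and CCAAT, the box of the same name; GGGCGG, the GC box, and CACGTG, the E-box; and TGANTCA, bound by AP-1, and GGAATG, bound by TEAD factors.
SKP2: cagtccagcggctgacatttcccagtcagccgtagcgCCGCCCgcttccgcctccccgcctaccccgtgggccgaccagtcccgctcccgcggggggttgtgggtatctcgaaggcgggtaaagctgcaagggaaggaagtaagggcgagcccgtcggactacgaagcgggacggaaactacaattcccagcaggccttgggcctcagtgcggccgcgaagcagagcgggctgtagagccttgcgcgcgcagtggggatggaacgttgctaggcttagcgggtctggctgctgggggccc
C5orf22: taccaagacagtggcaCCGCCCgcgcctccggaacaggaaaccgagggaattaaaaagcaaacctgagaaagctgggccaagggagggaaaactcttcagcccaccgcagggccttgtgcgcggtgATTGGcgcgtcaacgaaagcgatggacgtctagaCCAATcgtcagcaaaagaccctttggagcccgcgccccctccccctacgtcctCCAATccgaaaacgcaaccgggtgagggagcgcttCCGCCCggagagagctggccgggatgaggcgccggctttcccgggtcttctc
DAB2: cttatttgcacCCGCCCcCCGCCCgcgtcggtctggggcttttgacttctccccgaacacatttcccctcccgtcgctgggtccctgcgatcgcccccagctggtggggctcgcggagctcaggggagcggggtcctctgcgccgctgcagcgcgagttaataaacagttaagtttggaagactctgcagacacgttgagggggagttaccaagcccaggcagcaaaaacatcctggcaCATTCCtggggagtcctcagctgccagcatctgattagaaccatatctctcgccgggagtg
ARL15: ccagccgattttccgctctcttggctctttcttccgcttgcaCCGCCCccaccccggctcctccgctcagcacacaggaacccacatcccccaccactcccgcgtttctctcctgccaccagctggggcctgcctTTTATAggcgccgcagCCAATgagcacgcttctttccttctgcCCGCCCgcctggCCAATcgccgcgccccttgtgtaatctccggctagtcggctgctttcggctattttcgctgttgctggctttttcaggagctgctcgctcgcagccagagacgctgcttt

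The SKP2 window holds 1 GC box, and that of C5orf22 holds 3 CCAAT boxes and 2 GC boxes. The DAB2 window has 2 GC boxes beside each other and 1 TEAD match, and the ARL15 window 1 TATA box, 2 CCAAT boxes and 2 GC boxes. Over the 48 windows, a GC box was found in 33 (68.8%), against 45.0% of all 35116 windows of the RefSeq table, and a CCAAT box in 20 (41.7%) against 34.6%. A TATA box was found in 3 (6.25%) against 11.5%, an E-box in 4 (8.33%) against 7.26%, an AP-1 match in 1 (2.08%) against 7.71% and a TEAD match in 6 (12.5%) against 14.0%. Overlapping matches counted for each motif. Windows that overlap, as for SKP2 and LMBRD2, were each counted, so the same bases entered these shares more than once. The windows were rich in CpG, with an observed-to-expected ratio over 0.6 in 42 of 48 (87.5%) against 48.8% of all windows. Median GC content was 64.5% against 58.7%. The table also holds windows of genes that do not code for protein or were not expressed here, so these shares describe the windows and test nothing, and a match is not a site of binding.

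Between the knockout groups, KO2 was the lower one for more genes of the stretch than it was the higher one. By limma on log2(FPKM + 1) with Benjamini-Hochberg adjustment over all tested genes, 19 of the 51 genes (37.3%) were lower in KO2 than in KO1 and 2 were higher, and 30 were not called. Over all 16046 tested genes 15.0% were lower and 11.2% higher, and over the protein-coding ones 17.7% and 13.1%. Of the 19, 17 lie on 5p and 2 on 5q. The differences were small: the median over the 51 genes was -0.10 log2, against -0.01 over all tested genes. No test of the whole group was made, so this share is set beside the background and not called particular to the stretch. When 1 knockout library was left out (a group of 1 is then taken to vary like the others) the number lower was 10 without KO2 replicate 1, 13 without KO2 replicate 2, 9 without KO1 replicate 1 and 8 without KO1 replicate 2, and the number higher was 1, 1, 0 and 1.

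**Figure D4:**
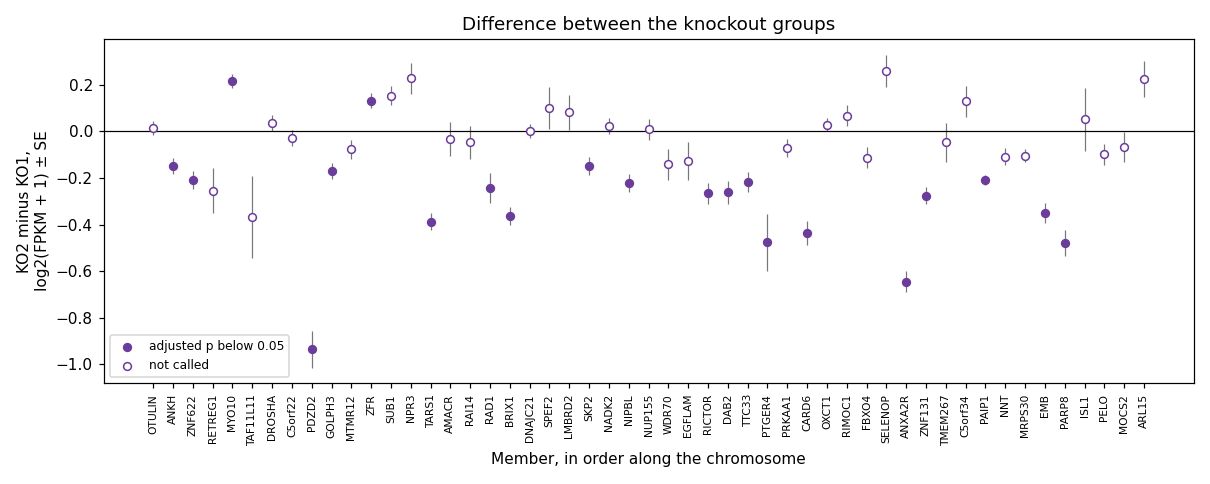
KO2 minus KO1 in log2(FPKM + 1) with the SE of the fit for each of the 51 genes, in order along the chromosome; filled points have a limma adjusted p below 0.05. Filled points lie below 0 for 19 genes and above 0 for MYO10 and ZFR. PDZD2, which passed the filter through KO1 alone, has the largest difference at -0.94.

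The largest of these differences belonged to PDZD2, at 0.675 and 0.572 FPKM in KO2 and 2.09 and 2.11 FPKM in KO1, which differed by -0.94 ± 0.08 log2 (adjusted p = 0.00199). PDZD2 passed the filter through the KO1 libraries alone, so the filter favoured this difference. ANXA2R, at 6.82 FPKM in both KO2 libraries and 11.3 and 11.2 FPKM in KO1, differed by -0.65 ± 0.04 log2 (adjusted p = 0.00128). The libraries of each group lay close together and the groups did not overlap for either gene. PARP8 differed by -0.48 ± 0.05 log2 (adjusted p = 0.00425), CARD6 by -0.44 ± 0.05 log2 (adjusted p = 0.00452), TARS1 by -0.39 ± 0.03 log2 (adjusted p = 0.00234), BRIX1 by -0.36 ± 0.04 log2 (adjusted p = 0.00370) and EMB by -0.35 ± 0.04 log2 (adjusted p = 0.00497). PAIP1 differed by -0.21 ± 0.02 log2 (adjusted p = 0.00339). These 8 were called under every alternative that could test them. PTGER4 differed by -0.48 ± 0.12 log2 (adjusted p = 0.0443), but that call was lost when any knockout library was left out (adjusted p up to 0.164), with a pseudocount of 0.1, without a filter, without the mean-variance trend and with the replicate number as a block (adjusted p = 0.0784).

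Calls of the other 12 genes also depended on single libraries. SKP2 differed by -0.15 ± 0.04 log2 (adjusted p = 0.0436), ANKH by -0.15 ± 0.04 log2 (adjusted p = 0.0372) and RAD1 by -0.24 ± 0.06 log2 (adjusted p = 0.0493), and each was lost without any 1 of the 4 knockout libraries; with the replicate block SKP2 and ANKH were lost as well (adjusted p = 0.0552 and 0.0709). RICTOR differed by -0.27 ± 0.05 log2 (adjusted p = 0.0139), DAB2 by -0.26 ± 0.05 log2 (adjusted p = 0.0175) and NIPBL by -0.22 ± 0.04 log2 (adjusted p = 0.0137), each lost without KO2 replicate 1, KO1 replicate 1 or KO1 replicate 2 (adjusted p up to 0.0878, 0.0951 and 0.0863). ZNF622 differed by -0.21 ± 0.04 log2 (adjusted p = 0.0169) and was lost without KO2 replicate 2 or either KO1 library (up to 0.0929), and GOLPH3 differed by -0.17 ± 0.03 log2 (adjusted p = 0.0237) and was lost without KO2 replicate 1 or either KO1 library (up to 0.125). TTC33 differed by -0.22 ± 0.04 log2 (adjusted p = 0.0209) and was lost without any 1 knockout library (up to 0.117), and ZNF131 differed by -0.28 ± 0.04 log2 (adjusted p = 0.00700) and was lost without KO1 replicate 2 (0.0545). Of the 2 that were higher in KO2, MYO10 differed by 0.21 ± 0.03 log2 (adjusted p = 0.00834) and was lost without KO1 replicate 1 (0.0623), and ZFR differed by 0.13 ± 0.03 log2 (adjusted p = 0.0388) and was lost without any 1 of the 6 libraries (up to 0.181) and with the replicate block (0.0559).

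DROSHA, OXCT1, NADK2, NUP155, DNAJC21 and OTULIN were among the 30 genes not called between the knockout groups. For OTULIN the difference was 0.01 ± 0.03 log2 (adjusted p = 0.793), for DROSHA 0.04 ± 0.03 log2 (adjusted p = 0.520) and for OXCT1 0.03 ± 0.03 log2 (adjusted p = 0.532). A missed threshold does not show equal levels, but the estimates for these 3 genes lay within 0.04 of 0 with an SE of 0.03. By role, KO2 was lower for 4 of 11 RNA and translation genes (1 higher), 4 of 8 chromatin and cell cycle genes, 4 of 7 kinase and adaptor genes, 4 of 5 surface genes, 3 of 12 trafficking genes (1 higher), 0 of 5 metabolic genes and 0 of 2 secreted protein genes, beside 17.7% lower and 13.1% higher over the tested protein-coding genes. With so few genes a list no role is set apart, and the calls of ANKH and PTGER4 among the surface genes and of SKP2 and RAD1 among the chromatin and cell cycle genes were lost when any knockout library was left out. Metabolic genes had a smallest adjusted p of 0.0996, for NNT.

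Several raised genes encode proteins that work with products of genes outside the stretch, and those partners went both ways. Lists of 49 such partners, some of them substrates or regulators and not subunits, were tested in the knockout average against WT. Of these 22 were higher, 20 lower and 7 not called, against 40.5% higher and 40.1% lower over all 16046 tested genes. Their median difference was -0.0038 log2. Of cohesin subunits and loader partners (NIPBL) 6 were higher, 2 lower and 1 not called, of SCF-SKP2 partners 3, 2 and 1, of mTORC2 partners (RICTOR) 2, 3 and 1, and of AMPK partners (PRKAA1) 3, 3 and 1. The counts were 0, 4 and 1 for Microprocessor and microRNA partners of DROSHA and 3, 2 and 0 for 9-1-1 clamp partners (RAD1). They were 2, 4 and 1 for the nucleoporins listed with NUP155 and 3, 0 and 1 for linear ubiquitin genes (OTULIN). With the sign kept, no partner reached the difference of the chromosome 5 gene in 7 of the 8 lists; in the other, RBCK1 at 0.96 exceeded OTULIN at 0.79. By size STK11, at -2.48, exceeded PRKAA1, at 1.44. The chromosome 5 genes come from a stretch chosen for its higher levels, so this order was largely fixed beforehand and nothing is read from it.

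**Figure D5:**
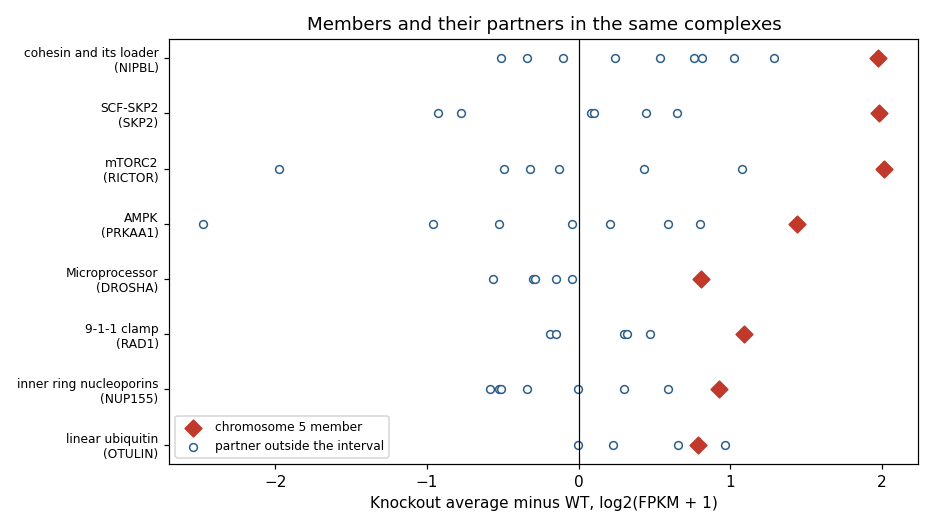
Knockout average minus WT in log2(FPKM + 1) for 8 genes of the stretch (diamonds) and for their 49 listed partners outside it (open circles), 1 row a list. Diamonds lie between 0.79 and 2.02, and the circles scatter on both sides of 0.

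The partners with the smallest adjusted p in each list are given as mean ± SD of the 4 knockout libraries and of the 2 WT libraries, with the limma difference of the knockout average. In the cohesin list STAG2, a core subunit, was at 21.8 ± 3.52 FPKM in the knockout libraries and 10.1 ± 0.321 FPKM in WT (1.02 ± 0.03 log2, adjusted p = 4.02e-06), and RAD21, the ring-closing subunit, at 131 ± 16.4 FPKM in the knockout libraries and 73.4 ± 1.01 FPKM in WT (0.82 ± 0.03 log2, adjusted p = 7.83e-06). All 4 knockout libraries lay above both WT libraries for both genes. Around SKP2, its cofactor CKS2 was lower at 98.0 ± 4.02 FPKM in the knockout libraries and 188 ± 2.82 FPKM in WT (-0.93 ± 0.04 log2, adjusted p = 8.4e-06), and its substrate gene CDKN1B (p27) higher at 32.0 ± 3.54 FPKM in the knockout libraries and 19.9 ± 0.395 FPKM in WT (0.65 ± 0.03 log2, adjusted p = 2.35e-05). In mTORC2, PRR5, an accessory subunit, was lower at 2.48 ± 0.244 FPKM in the knockout libraries and 12.7 ± 0.251 FPKM in WT (-1.98 ± 0.05 log2, adjusted p = 2.12e-06), and MTOR, the kinase itself, higher at 8.76 ± 0.581 FPKM in the knockout libraries and 6.23 ± 0.0189 FPKM in WT (0.43 ± 0.03 log2, adjusted p = 6.95e-05). For AMPK, both named partners were lower: the upstream kinase STK11 (LKB1) was at 0.844 ± 0.146 FPKM in the knockout libraries and 9.23 ± 0.480 FPKM in WT (-2.48 ± 0.06 log2, adjusted p = 2.28e-06), and CAB39, which activates it, at 19.8 ± 0.752 FPKM in the knockout libraries and 39.4 ± 0.302 FPKM in WT (-0.96 ± 0.02 log2, adjusted p = 1.81e-06). DGCR8, the RNA-binding partner of DROSHA, was lower at 6.35 ± 0.656 FPKM in the knockout libraries and 9.84 ± 0.0782 FPKM in WT (-0.56 ± 0.03 log2, adjusted p = 2.94e-05).

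DDX5, an RNA helicase of the Microprocessor, was lower at 98.0 ± 13.6 FPKM in the knockout libraries and 120.2 ± 1.51 FPKM in WT (-0.30 ± 0.02 log2, adjusted p = 8.41e-05). RAD17, the clamp loader, lies on chromosome 5 beyond the stretch and was higher at 8.80 ± 0.478 FPKM in the knockout libraries and 6.08 ± 0.123 FPKM in WT (0.47 ± 0.04 log2, adjusted p = 0.000193). RAD9A, the clamp partner of RAD1, was higher at 8.21 ± 0.201 FPKM in the knockout libraries and 6.49 ± 0.0703 FPKM in WT (0.30 ± 0.03 log2, adjusted p = 0.000523). Of the nucleoporins NUP205 was higher at 26.4 ± 1.43 FPKM in the knockout libraries and 17.2 ± 0.159 FPKM in WT (0.59 ± 0.03 log2, adjusted p = 2.82e-05) and NUP93 lower at 9.05 ± 0.248 FPKM in the knockout libraries and 14.1 ± 0.149 FPKM in WT (-0.59 ± 0.03 log2, adjusted p = 3.79e-05), so partners of NUP155 went both ways. RBCK1, a subunit of the ligase that builds linear chains, was higher at 46.0 ± 6.19 FPKM in the knockout libraries and 22.9 ± 1.13 FPKM in WT (0.96 ± 0.04 log2, adjusted p = 1.36e-05), and CYLD, a deubiquitinase that like OTULIN removes them, at 3.29 ± 0.605 FPKM in the knockout libraries and 1.70 ± 0.0683 FPKM in WT (0.66 ± 0.05 log2, adjusted p = 0.000111).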

How the data were processed

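The submitters' processing notes name HISAT2 2.0.5, featureCounts 1.5.0-p3 and hg38; their roles, the strand setting and the treatment of shared reads are not given in sources used here. The authors deposited 1 file of FPKM values per library with 58735 Ensembl IDs, all found in GENCODE release 29; 58207 had a current symbol. Multiplied by union exon length, 100% of values were whole steps of 1 size per library (within 0.1 step), which gave the read numbers. By these steps, the depth behind the FPKM values was 1.03 to 1.05 times the read totals in the knockout libraries. In WT it was 0.945 and 0.936 times. The deposited values thus carry a scaling beyond read totals, and its method is unknown here. The fit with library size as the only scaling leaves it out.

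Genes with FPKM of at least 1 in at least 2 libraries (16046) were fitted on log2(FPKM + 1) in R 4.3.3 by limma 3.58.1, with all 6 libraries, 1 mean per group and a mean-variance trend, and called at a Benjamini-Hochberg adjusted p below 0.05. The fit was checked on simulated data. Differences carry the SE of the fit, levels the SD; a ratio is the mean FPKM of the 4 knockout libraries over that of WT. A fold against 0 reads used a floor of 3 reads per library. Replicate pairs differed beyond counting error (chi-square per degree of freedom 1.83 to 2.58), which does not show that they were separate cultures. Each library counted as a replicate, and the spread between them may be technical.

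Members, gene lists and the naming rule were chosen with earlier results of these data known. Named are the members with the largest KO2 minus KO1 differences, the 6 highest and 6 lowest against WT, the 3 most abundant of each role list, the genes at the ends of the stretch and up to 2 partners per list; MYO10, ZFR, DROSHA and others given with values beyond these were named after their values were seen. The 14 alternative fits changed pseudocount, filter, scaling, trend, a replicate block or the libraries used. Promoter windows came from RefSeq.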

Additional observations from a re-analysis of the deposited data

Results flagged for a closer look

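MYO10 and PDZD2 were picked out because KO2 and KO1 lay on opposite sides of WT in every library. The KO2 minus KO1 difference was 0.21 log2 for MYO10 and -0.94 for PDZD2 (limma adjusted p = 0.00834 and 0.00199, Benjamini-Hochberg over all tested genes). For MYO10 the side of WT on which KO1 lies changes with scaling, as given above. PDZD2 passed the filter through KO1 alone, which favoured its difference.

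Genes of the stretch that do not code for protein were outside the comparisons, and 8 of them had 0 reads in both WT libraries and at least 1 FPKM in all 4 knockout libraries. PURPL, a long non-coding RNA known as a target of p53 (chromosome 5, 27472292 to 27496401), averaged 47.1 FPKM over the 4 knockout libraries: 53.6 and 56.4 FPKM in KO2 and 39.2 and 39.3 FPKM in KO1. BASP1-AS1 averaged 6.47 FPKM; it is annotated antisense to BASP1, and without a known strand setting its reads and those of BASP1 cannot be told apart. LINC02104 averaged 2.80 FPKM and LINC02899 2.27 FPKM. RNU6-1003P at 4.27 FPKM and RBISP2 at 1.85 FPKM are copies of other genes and uncertain. ENSG00000212567, a small nucleolar RNA, averaged 1.80 FPKM from 11 reads in KO2 and 8 in KO1, and ENSG00000272382 averaged 1.71 FPKM.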

How the results depend on the processing

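The median difference of the 51 genes from WT stayed positive in all 14 fits. For the knockout average it was 1.08 log2, 1.26 with a pseudocount of 0.1, 1.16 with quantile normalization, 1.21 with library size as the only scaling, which moves the median of all tested genes by 0.12, 1.28 with voom and TMM, and 1.03 to 1.16 with 1 library left out. For KO2 it was 0.97, then 1.14, 1.06, 1.12 and 1.21, and 0.90 to 1.05 with 1 library left out. For KO1 it was 1.21, then 1.30 with a pseudocount of 0.1, 1.32 with library size, 1.30 with voom, 1.16 with a filter of 1 FPKM in all 6 libraries, and 1.19 to 1.22 with 1 library left out. Without the 17 genes that share exon bases, an alternative chosen after seeing the data, the medians were 0.96 for the knockout average, 0.88 for KO2 and 1.12 for KO1.

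In KO2 minus KO1 the median was -0.10, -0.068 with quantile normalization and -0.12 to -0.10 with 1 library left out. Members called higher, 2 with the settings used above, were 1 without a filter, 4 with the filter in all 6 libraries, 5 with quantile normalization, 4 with library size, 5 with voom and 0 to 3 with 1 library left out. Members called lower, 19 with those settings, were 8 to 19 with 1 library left out and 14 to 21 in the other fits. Of the 21 calls 8 were kept in every fit that could test them; without a filter or without the trend, those of SKP2, ANKH, RAD1, GOLPH3, ZFR and PTGER4 were lost. Over all genes 833 to 1502 were higher and 1016 to 1863 lower with 1 library left out, against 1800 and 2403; the surplus of lower genes shrank or turned with quantile normalization (2191 higher, 2130 lower), library size (2087, 2120) and voom (2673, 2744). The replicate numbers did not pair the libraries (correlations of deviations -0.04, 0.02 and -0.0041); with the replicate block 2 members were higher and 16 lower, and 1482 and 1985 of all genes. The KO2 minus WT difference of PARP8 was -0.0019 to 0.103 with 1 KO2 library left out; that of ZFR was 0.037 with quantile normalization and 0.014 with library size, and KO1 minus WT of MYO10 0.014 and 0.064. Partner counts were 20 to 25 higher and 17 to 22 lower in these fits. The causes were not tested. With 2 libraries a group, small differences may be missed, and WT levels under 1 FPKM bound a ratio poorly.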

Other observations

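Most non-coding genes of the stretch that passed the filter were also higher in the knockout libraries than in WT. Of 362, 51 passed the filter; 41 had all 4 knockout libraries above both WT libraries, 3 had them below and 7 overlapped, with a median difference of 1.24 log2 for the knockout average. Unlike for the protein-coding genes, KO2 (median difference 1.24) was not below KO1 (1.14), and KO2 minus KO1 was called higher for 6 and lower for 6 (background 11.2% and 15.0%). Over all tested genes 39.9% lay above and 40.0% below. Of the 51, 12 had 0 reads in WT and many others were under 1 FPKM in both WT libraries. These passed the filter through knockout libraries alone, so the filter itself favoured a higher level in them. MOCS2-DT passed through WT alone. The stretch was chosen on the same libraries, and many of these genes lie beside or inside a protein-coding gene of the stretch, so this is a description with no test.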
